A study of Mus musculus with 18 samples.

Results

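The Toll-like receptor genes Tlr1, Tlr2, Tlr4, Tlr5, Tlr6, Tlr7, Tlr8, Tlr9 and Tlr13 and the co-receptor gene Cd14 were followed in mouse bone marrow neutrophils exposed to GM-CSF, a cytokine that acts on myeloid cells. The 10 genes were chosen by symbol from the 53379 gene IDs of the deposited count table (the set was drawn up with earlier results of these data known), and all 10 were among the 11569 genes with enough counts to be tested. Neutrophils were sorted by flow cytometry from the bone marrow of 10-week-old mice labelled CIS-/- and of 10-week-old wild-type (WT) mice, both with no strain named in the labels. The cells were lysed after the sort (unstimulated) or cultured with 100 ng/mL GM-CSF for 4 h or 24 h, which gave 6 groups of 3 libraries, 18 in all. CIS, encoded by Cish, is an inhibitor of cytokine receptor signalling, and the series title places the comparison in a study of GM-CSF in arthritis. No group was cultured without GM-CSF, so the effects of culture and of GM-CSF cannot be told apart. No label tells whether the 3 libraries of a group came from separate mice, and every p-value below therefore speaks of spread among libraries, which may be technical.

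Toll-like receptors recognise conserved microbial molecules and signal largely through the adaptor MyD88 to NF-kB and MAP kinases. TLR2 pairs with TLR1 or TLR6 to bind bacterial lipopeptides, TLR4 binds lipopolysaccharide together with MD-2, and CD14 delivers lipopolysaccharide and other ligands to these surface receptors. TLR5 recognises flagellin, while TLR7, TLR8, TLR9 and, in mice, TLR13 sit in endosomes and sense nucleic acids. Neutrophils use these receptors to detect bacteria and fungi.

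Libraries held between 12170524 and 22539858 counts, and levels are given as CPM (counts per 1e+06 counts) of the library size scaled by the trimmed mean of M values (TMM). After GM-CSF, Cish ranged over 237 to 243 CPM (4 h) and 233 to 243 CPM (24 h) in libraries labelled CIS-/-, against 1138 to 1155 CPM and 1056 to 1069 CPM in WT. Unstimulated, its order was turned round, 17.9 to 19.98 CPM in libraries labelled CIS-/- against 6.48 to 6.52 CPM in WT. Unstimulated Cish was therefore not lower under the CIS-/- label. The part of the gene removed is unnamed in the labels, so these transcript levels cannot settle the genotype. Every direction below refers to libraries by their label. The summed neutrophil markers (11 genes, S100a8 and S100a9 among them) were abundant throughout, at 118232 to 122157 CPM unstimulated, 68893 to 73946 CPM at 4 h and 33850.1 to 38339.8 CPM at 24 h where the label was CIS-/-. In WT libraries the same sum was 123339 to 124562 CPM, 74168 to 75429.8 CPM and 33566 to 34939.6 CPM at these times.

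At 24 h Cd14 and the surface receptor genes Tlr1, Tlr2, Tlr4 and Tlr6 stood higher in the libraries labelled CIS-/- than in WT. Cd14 was 14.7-fold, Tlr1 3.24-fold, Tlr2 2.94-fold, Tlr4 2.43-fold and Tlr6 2.04-fold the WT level. Of the endosomal receptors, Tlr7 was 3.60-fold the WT level, whereas Tlr8 stood at 0.188 and the flagellin receptor gene Tlr5 at 0.259 of it. Of the 10 genes, 8 were called higher and 2 lower at an adjusted p under 0.05 (edgeR quasi-likelihood test, Benjamini-Hochberg adjustment over all genes tested). The share of all tested genes called at 24 h was 38.2% higher and 38.1% lower. The median log2 fold change of the 10 genes was 1.15, against -0.021 over all genes tested. With library sizes alone in place of TMM, the median over all genes moved to -0.55, and 6 of the 10 genes were called higher and 3 lower, beside 22.1% and 60.5% of all tested genes. Tlr9 and Tlr13 then stood on the lower side, at -0.043 and -0.32 on the log2 scale, while the other 8 kept their direction with lower values, such as 1.02 for Tlr2, 0.75 for Tlr4, 0.49 for Tlr6 and 3.35 for Cd14.

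**Figure D1:**
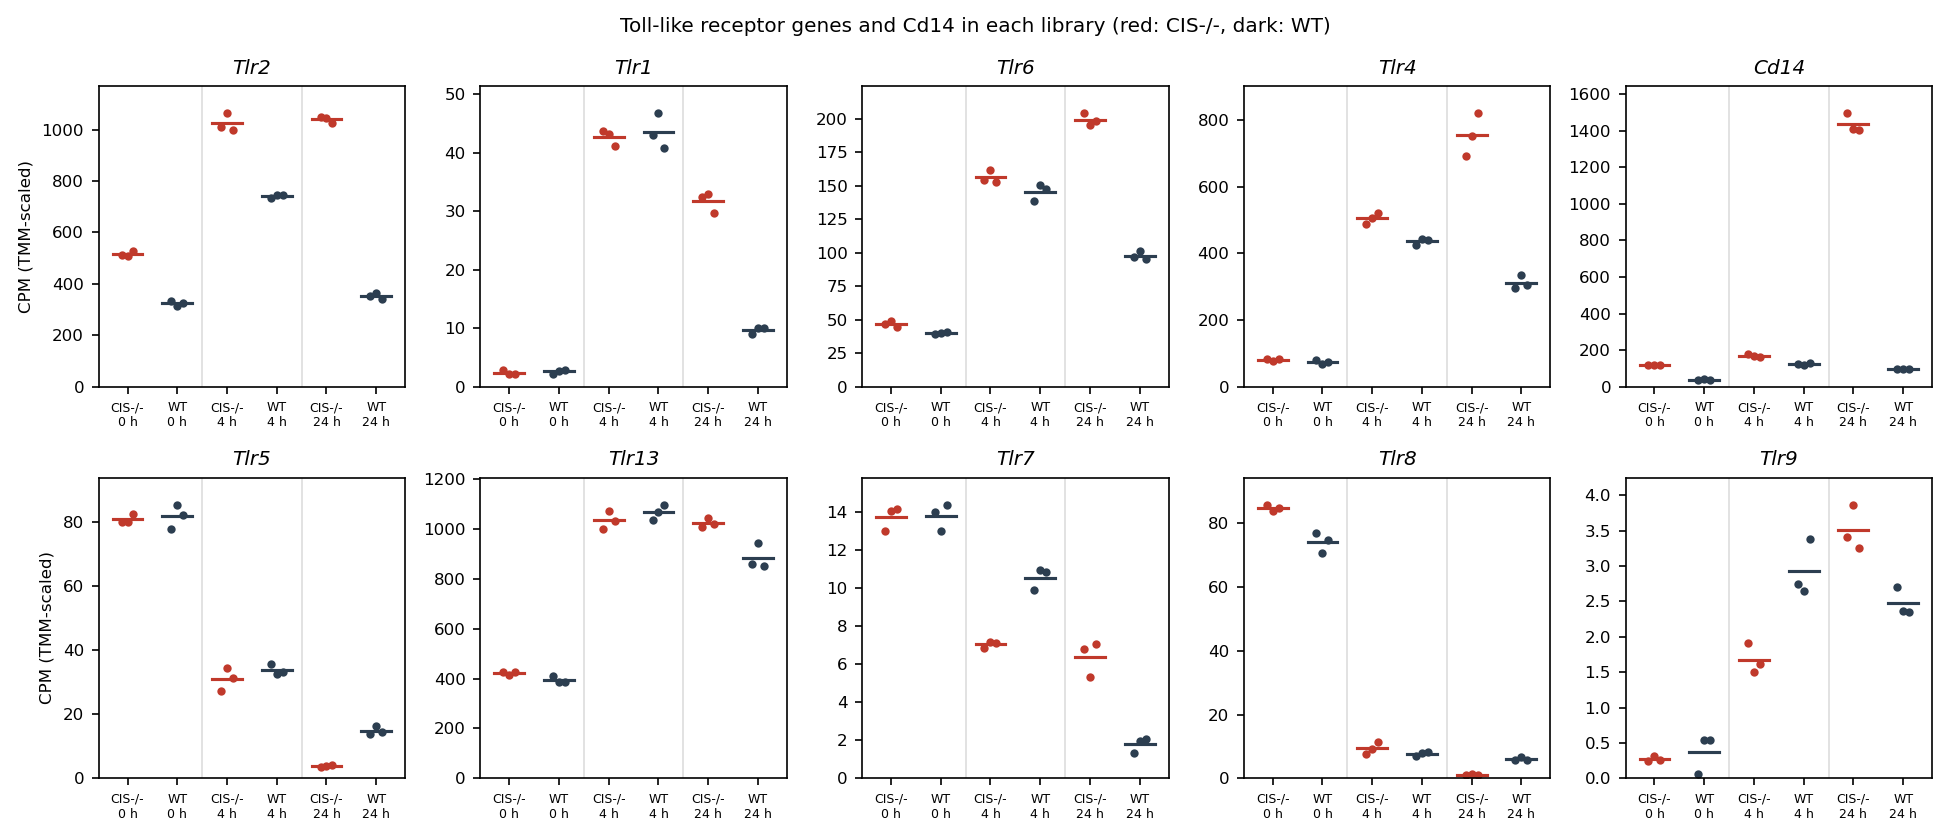
Level of each gene in every library, in CPM with TMM scaling, with 1 point per library and a bar at the mean of 3; libraries labelled CIS-/- (red) stand left of WT libraries (dark) at each time, and 0 h marks unstimulated cells. Cd14 at 24 h spans 1403 to 1495 CPM in the libraries labelled CIS-/-, above every other library.

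Monocytes and macrophages also express Cd14 and Toll-like receptors, so their markers were read in the same libraries. The 12 markers summed to 1019.6 to 1058 CPM at 24 h in libraries labelled CIS-/-, against 547 to 568 CPM in WT, to 750.1 to 770.2 CPM at 4 h, against 712 to 749 CPM in WT, and to 752 to 786 CPM unstimulated, against 764 to 802 CPM in WT. Of the 12, 5 passed the filter. At 24 h 3 of these were called higher and 0 lower (Adgre1, Ly6c2 and Fcgr1), beside 38.2% and 38.1% of all tested genes. With library sizes alone the 24 h counts were 2 and 2, beside 22.1% and 60.5%. At 4 h 3 of the 5 were called higher and 0 lower with either scaling, beside 8% and 9.3% of all tested genes with TMM. Unstimulated, 0 were called higher and 0 lower with TMM, and 0 and 2 with library sizes alone. Adgre1, the gene of F4/80, made up most of the 24 h sum, at 777 ± 18.4 CPM in libraries labelled CIS-/- and 344 ± 11.8 CPM in WT. The defining macrophage genes C1qa, C1qb, C1qc, Cx3cr1 and Mrc1 had at most 7 counts in any library. The 6 erythroid markers summed to 30.1 to 41.7 CPM in libraries labelled CIS-/- and 7.73 to 9.35 CPM in WT at 24 h, to 78.5 to 113 CPM and, in WT, 30.1 to 35.6 CPM at 4 h, and to 119 to 123 CPM and, in WT, 43.7 to 45.8 CPM unstimulated. All 5 erythroid markers tested were called higher in libraries labelled CIS-/- at each time. In every library, summed markers stayed at or below 2.98 CPM for B cells, 1.43 CPM for dendritic cells, 8.76 CPM for T and NK cells and 64.2 CPM for eosinophils, basophils and mast cells. The part of other cells in the differences of the 10 genes was not tested, and in bulk libraries fewer cells of a type and less RNA per cell cannot be told apart.

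Promoter sequence is shown for 4 genes that took different courses, to set the letters beside the values: Tlr2 and Tlr6, which rose with GM-CSF, and Tlr5 and Tlr8, which fell. RefSeq windows (GRCm38.p6) from 250 bases before to 50 bases after the annotated start were available for 7 of the 10 genes, and capitals mark matches to the motifs searched. The motifs were TTCNNNGAA (STAT), the NF-kB consensus and GAGGAAG (ETS), each on both strands. The Tlr2 window is chr3:83841559-83841858, Tlr6 chr5:64959999-64960298, Tlr5 chr1:182954538-182954837 and Tlr8 chrX:167264280-167264579, on the strand of each gene. The RefSeq start of Tlr2 lies 159 bases, and that of Tlr6 49 bases, from the start in the annotation used for gene coordinates.
Tlr2: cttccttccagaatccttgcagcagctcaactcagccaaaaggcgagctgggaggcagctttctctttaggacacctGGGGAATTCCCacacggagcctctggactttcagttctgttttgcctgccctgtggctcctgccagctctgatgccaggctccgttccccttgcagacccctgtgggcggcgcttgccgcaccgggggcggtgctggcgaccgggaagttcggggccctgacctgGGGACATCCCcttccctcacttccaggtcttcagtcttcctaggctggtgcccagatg
Tlr6: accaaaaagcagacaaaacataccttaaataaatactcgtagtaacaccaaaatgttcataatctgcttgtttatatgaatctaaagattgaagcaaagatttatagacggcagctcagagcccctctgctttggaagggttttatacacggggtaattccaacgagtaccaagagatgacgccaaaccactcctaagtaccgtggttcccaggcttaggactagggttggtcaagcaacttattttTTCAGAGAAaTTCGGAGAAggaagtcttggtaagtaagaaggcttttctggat
Tlr5: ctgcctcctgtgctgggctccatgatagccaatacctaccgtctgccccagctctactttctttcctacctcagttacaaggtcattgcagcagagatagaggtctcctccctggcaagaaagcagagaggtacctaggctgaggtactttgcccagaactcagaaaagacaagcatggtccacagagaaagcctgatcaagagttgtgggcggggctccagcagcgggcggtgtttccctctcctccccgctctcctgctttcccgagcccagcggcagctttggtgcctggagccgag
Tlr8: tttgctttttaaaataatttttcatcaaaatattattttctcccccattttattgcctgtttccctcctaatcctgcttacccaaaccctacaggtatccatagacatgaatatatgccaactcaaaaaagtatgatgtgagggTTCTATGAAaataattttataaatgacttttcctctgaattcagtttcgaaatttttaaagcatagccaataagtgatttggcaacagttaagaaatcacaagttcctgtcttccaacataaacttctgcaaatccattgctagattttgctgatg
The Tlr2 window held 3 matches to the NF-kB consensus, 2 of which overlap, and no STAT or ETS match. Tlr6 had 2 STAT matches at its RefSeq start and Tlr8 had 1 in its window, in genes that moved in opposite directions. Tlr5 had no match to any of the 3 motifs. ETS matches stood in the windows of Tlr1 (1), Tlr9 (2) and Tlr13 (1). Of all 32841 promoter windows, 8.3% held the STAT motif, 8.46% the NF-kB consensus and 13.6% the ETS motif. A match describes the letters only, and binding was not measured.

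Cd14 (gene ID ENSMUSG00000051439, GRCm38 chromosome 18), which encodes the anchored lipopolysaccharide co-receptor, showed the widest genotype difference of the 10. Unstimulated libraries held 118, 121 and 120.5 CPM when labelled CIS-/-, against 39.3, 40.1 and 38.1 CPM in WT. At 4 h the values were 178, 167 and 161 CPM in libraries labelled CIS-/-, against 123, 122 and 129.9 CPM in WT. At 24 h they were 1495, 1410.1 and 1403 CPM in libraries labelled CIS-/-, against 98.2, 99.01 and 95.3 CPM in WT. The genotypes did not overlap at any time: they stood closest at 4 h, and only the libraries labelled CIS-/- stood above 1000 CPM at 24 h. The log2 fold change over WT was 1.62 ± 0.045 (SE) unstimulated (edgeR adjusted p = 8.46e-38). After 4 h it was 0.43 ± 0.040 (edgeR adjusted p = 2.15e-13), and after 24 h it had widened to 3.88 ± 0.039, with an edgeR adjusted p of 2.92e-63. Over time, Cd14 rose at 4 h by 0.49 ± 0.039 in the libraries labelled CIS-/- and by 1.68 ± 0.046 in WT on the log2 scale. The test of the difference between these changes gave -1.19 ± 0.061 (edgeR adjusted p = 3.90e-24), so the 4 h rise was smaller in the libraries labelled CIS-/-. By 24 h the difference in change from unstimulated cells was 2.26 ± 0.060 in the other direction (edgeR adjusted p = 2.12e-40). Between 4 h and 24 h Cd14 rose by 3.09 in libraries labelled CIS-/-, while in WT the log2 change was -0.36 with TMM and 0.13 with library sizes alone.

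Tlr2 (ENSMUSG00000027995, chr3:83836272-83841767, minus strand, GRCm38 as for all gene coordinates) encodes the shared subunit of the lipopeptide receptors. Its level unstimulated was 512, 510.0 and 526 CPM in libraries labelled CIS-/-, against 333, 314 and 327 CPM in WT. At 4 h it was 1008, 1063 and 999.9 CPM in libraries labelled CIS-/-, against 733, 744 and 746 CPM in WT. At 24 h it was 1048, 1046 and 1025 CPM in libraries labelled CIS-/-, against 354, 366 and 339.9 CPM in WT. Every library labelled CIS-/- stood above every WT library of its time. The log2 fold changes over WT were 0.67 ± 0.033, 0.47 ± 0.032 and 1.56 ± 0.033 (SE) unstimulated, at 4 h and at 24 h, with edgeR adjusted p of 4.71e-25, 3.42e-18 and 5.68e-46. In WT the log2 change from unstimulated cells was 1.19 ± 0.033 at 4 h and 0.12 ± 0.033 at 24 h, or 1.01 and 0.43 with library sizes alone. In libraries labelled CIS-/- Tlr2 was 1.01 ± 0.033 above unstimulated cells at 24 h, and its log2 change between 4 h and 24 h was 0.022 with a 95% interval of -0.043 to 0.086, not called (edgeR adjusted p = 0.549).

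Tlr1 (ENSMUSG00000044827, chr5:64924679-64933563) and Tlr6 (ENSMUSG00000051498, chr5:64952031-64960097), both on the minus strand of chromosome 5, encode the partners of TLR2. They are paralogs, and no source used here tells how reads that match both were counted. Tlr1 was lowest in unstimulated cells, at 46, 35 and 35 counts per library labelled CIS-/- and 37, 40 and 55 counts per WT library. At 4 h it reached 41.3 to 43.8 CPM in libraries labelled CIS-/- and 40.9 to 46.8 CPM in WT, ranges that overlap. At 24 h the genotypes were apart, with 32.4, 32.9 and 29.8 CPM in libraries labelled CIS-/-, against 9.08, 10.02 and 10.01 CPM in WT (log2 fold change 1.69 ± 0.076, edgeR adjusted p = 4.42e-29). Tlr6 followed the same order at 24 h, at 204, 196 and 198 CPM in libraries labelled CIS-/-, against 97.1, 101 and 95.1 CPM in WT (log2 fold change 1.03 ± 0.039, edgeR adjusted p = 1.97e-32). Unstimulated Tlr6 ranged over 44.9 to 48.96 CPM in libraries labelled CIS-/- and 39.3 to 41.04 CPM in WT, a small difference that was called (log2 fold change 0.22 ± 0.052, edgeR adjusted p = 9.26e-04). The 4 h difference of Tlr6 was 0.11 ± 0.041 and was not called (edgeR adjusted p = 0.0621), although RLE factors, DESeq2, a strict filter and a fit of the compared groups alone called it. Per kilobase of exon, Tlr1 stood at 0.177 ± 0.0102 of Tlr6 in libraries labelled CIS-/- at 24 h, against 0.111 ± 0.00651 in WT (SD, n = 3). At 4 h these ratios were 0.305 ± 0.00970 in libraries labelled CIS-/- and 0.333 ± 0.0215 in WT, and unstimulated they were 0.0578 ± 0.00834 and, in WT, 0.0729 ± 0.00816. Tlr1 transcripts thus stayed below those of Tlr6 in each group, closest at 4 h.

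Tlr4 (ENSMUSG00000039005, chr4:66827584-66930284, plus strand), the lipopolysaccharide receptor gene, stood higher after GM-CSF than before it in both genotypes. Unstimulated cells held 83.1, 75.97 and 84.8 CPM in libraries labelled CIS-/-, against 79.1, 69.2 and 75.7 CPM in WT, with overlap. At 4 h the levels were 488, 506 and 522 CPM in libraries labelled CIS-/-, against 426, 443 and 440.2 CPM in WT. At 24 h they were 693, 751 and 819.5 CPM in libraries labelled CIS-/-, against 295, 334 and 304 CPM in WT. Thus the genotypes stood close until 4 h and were 2.43-fold apart at 24 h, as Tlr4 went on rising between 4 h and 24 h where the label was CIS-/- (log2 change 0.58 ± 0.056). In WT it fell over the same interval (-0.49 ± 0.057, edgeR adjusted p = 1.48e-07), a call lost with library sizes alone (-0.0020). The difference between these 2 changes was 1.07 ± 0.079 (edgeR adjusted p = 2.13e-10). The log2 fold change over WT was 1.28 ± 0.056 at 24 h (edgeR adjusted p = 1.82e-14). At 4 h it was 0.21 ± 0.057 (edgeR adjusted p = 0.0118), which rose to p of 0.0656 without WT replicate 1, 0.0534 without replicate 2 labelled CIS-/- and 0.0685 without replicate 3 labelled CIS-/-. Cd14 and Tlr4, whose products act together on lipopolysaccharide, did not keep a fixed ratio: per kilobase, Cd14 was 6.15 ± 0.723 times Tlr4 at 24 h in libraries labelled CIS-/-, against 1.01 ± 0.0580 times in WT (SD, n = 3). Unstimulated, this ratio was 4.75 ± 0.327 in libraries labelled CIS-/-, against 1.69 ± 0.146 in WT, and at 4 h it was 1.07 ± 0.0905 and, in WT, 0.919 ± 0.0333.

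**Figure D2:**
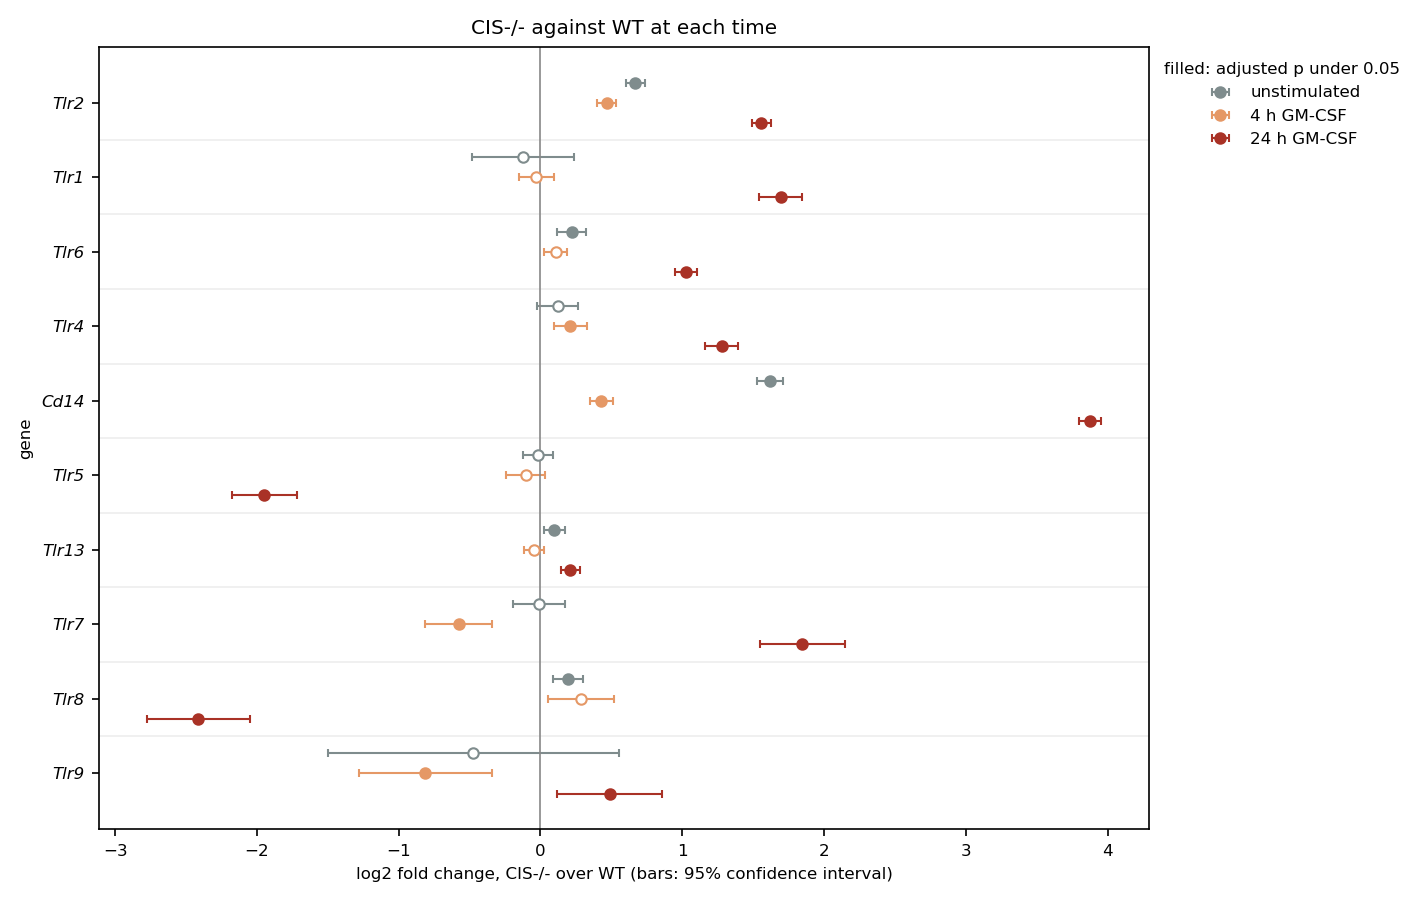
Log2 fold change of libraries labelled CIS-/- over WT libraries for each gene (rows) at the 3 times (colours), with 95% confidence intervals from the edgeR fit and filled points for an adjusted p under 0.05. At 24 h every point is filled, 8 to the right of 0 and Tlr5 and Tlr8 to the left, whereas of the 10 genes only Cd14 and Tlr2 are filled at both earlier times.

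Tlr5 (ENSMUSG00000079164, chr1:182954788-182976044, plus strand), the flagellin receptor gene, went down in culture. Unstimulated libraries held 79.8, 80.03 and 82.6 CPM when labelled CIS-/-, against 77.8, 85.3 and 82.1 CPM in WT, and the genotypes overlapped. At 4 h Tlr5 was at 27.3, 34.4 and 31.3 CPM in libraries labelled CIS-/-, against 35.6, 32.4 and 33.2 CPM in WT, again with overlap. At 24 h it was at 3.41, 3.86 and 4.20 CPM in libraries labelled CIS-/-, against 13.7, 16.4 and 14.5 CPM in WT. The 24 h groups were apart, with every library labelled CIS-/- below 5 CPM and every WT library above 13 CPM. The log2 fold change over WT at 24 h was -1.95 ± 0.11 (edgeR adjusted p = 2.36e-23), and the 24 h change from unstimulated cells differed between genotypes by -1.93 ± 0.13 (edgeR adjusted p = 9.60e-21).

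Among the endosomal receptors, Tlr8 (ENSMUSG00000040522, chrX:167242696-167264329, minus strand) fell farthest. Unstimulated cells held 85.8, 83.97 and 84.96 CPM of this RNA sensor gene in libraries labelled CIS-/-, against 77.05, 70.6 and 74.7 CPM in WT. At 4 h 7.65, 9.16 and 11.4 CPM remained in libraries labelled CIS-/-, against 7.01, 7.82 and 8.28 CPM in WT. At 24 h the libraries labelled CIS-/- held 13, 16 and 21 counts each, or 1.01, 1.47 and 1.05 CPM, against 5.82, 6.64 and 5.74 CPM in WT. In WT nearly all of the fall came before 4 h, whereas in libraries labelled CIS-/- a further log2 change of -3.03 ± 0.18 followed. The log2 change in WT between 4 h and 24 h was -0.33 ± 0.12 (edgeR adjusted p = 0.00856). It was 0.16 with library sizes alone, and without WT 4 h replicate 3 its adjusted p was 0.0516. Against WT, Tlr8 was higher unstimulated (log2 fold change 0.19 ± 0.052, edgeR adjusted p = 0.00347) and lower after 24 h (-2.41 ± 0.18, edgeR adjusted p = 1.25e-18).

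Tlr7 (ENSMUSG00000044583, chrX:167304929-167330558, minus strand), the neighbour of Tlr8 on the X chromosome and a sensor of single-stranded RNA, ran differently. It was at 13.02, 14.1 and 14.2 CPM in unstimulated libraries labelled CIS-/-, against 14.00, 13.04 and 14.4 CPM in WT. At 4 h it was at 6.87, 7.20 and 7.15 CPM in libraries labelled CIS-/-, against 9.90, 10.9 and 10.8 CPM in WT. At 24 h it was at 6.82, 5.33 and 7.06 CPM in libraries labelled CIS-/-, against 1.35, 1.98 and 2.06 CPM in WT. Tlr7 was therefore lower than WT at 4 h and higher at 24 h, with no overlap at either time. The 4 h log2 fold change over WT was -0.58 ± 0.12 (edgeR adjusted p = 1.39e-04), and the 24 h one 1.85 ± 0.15, with an edgeR adjusted p of 3.97e-17. The 24 h value rests on 88, 58 and 141 counts per library labelled CIS-/- and 29, 57 and 42 counts per WT library. Between 4 h and 24 h Tlr7 fell by 2.54 on the log2 scale in WT, while its change in libraries labelled CIS-/- was -0.12 with a 95% interval of -0.37 to 0.14, and the difference of 2.42 ± 0.19 was called (edgeR adjusted p = 1.98e-17).

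Tlr13 (ENSMUSG00000033777, chrX:106143204-106160493, plus strand), the receptor of bacterial ribosomal RNA in mice, was abundant throughout and varied little between genotypes. Unstimulated libraries held 414 to 427 CPM when labelled CIS-/-, against 384 to 411 CPM in WT. At 4 h the ranges were 999.7 to 1072 CPM in libraries labelled CIS-/- and 1035 to 1097 CPM in WT, and at 24 h 1007 to 1045 CPM in libraries labelled CIS-/- and 851 to 942 CPM in WT. The gene rose at 4 h in both, by 1.29 ± 0.035 in libraries labelled CIS-/- and 1.43 ± 0.036 in WT on the log2 scale. Its 24 h difference between genotypes was 0.21 ± 0.034 (edgeR adjusted p = 1.61e-07), against -0.32 with library sizes alone, so its direction depends on the scaling. The unstimulated difference was 0.099 ± 0.036 (edgeR adjusted p = 0.0370), and it was not called with library sizes alone, limma-voom, no low-count filter or a non-robust prior. It was also not called without WT replicate 2 or 3 or without replicate 1 or 3 labelled CIS-/- (edgeR adjusted p between 0.125 and 0.193).

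Tlr9 (ENSMUSG00000045322, chr9:106222598-106226883, plus strand), the sensor of unmethylated CpG DNA, had the fewest counts. Unstimulated libraries held 4, 5 and 4 counts when labelled CIS-/- and 1, 8 and 10 in WT. At 4 h the counts were 22, 26 and 19 in libraries labelled CIS-/- and 36, 39 and 42 in WT. At 24 h they were 44, 42 and 65 in libraries labelled CIS-/- and 58, 68 and 48 in WT, from libraries of unequal depth. Tlr9 was higher after GM-CSF than before it in both genotypes, by 3.63 ± 0.32 in libraries labelled CIS-/- and 2.67 ± 0.29 in WT at 24 h on the log2 scale. Against WT it was lower at 4 h (-0.81 ± 0.24, edgeR adjusted p = 0.00901), a call lost without WT replicate 3, with an edgeR adjusted p of 0.0647, or without replicate 2 labelled CIS-/-, with an edgeR adjusted p of 0.0711. At 24 h it was higher (0.49 ± 0.19, edgeR adjusted p = 0.0152), but -0.043 with library sizes alone, and without replicate 2 labelled CIS-/- the edgeR adjusted p was 0.0597. Tlr9 lies 1069143 bp from Cish on chromosome 9, and a part of that position in its difference was not tested. The other receptor genes of the mouse family, Tlr3, Tlr11 and Tlr12, had at most 3 counts in any library and were not tested, and Tlr11 had 0 counts in every library.

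Taking the genotype comparisons by time, 5 of the 10 genes were called higher and 0 lower unstimulated (Cd14, Tlr2, Tlr6, Tlr8 and Tlr13), where 12.9% of all tested genes were called higher and 9.41% lower. Scaled by library size alone, 4 were called higher and 0 lower, beside 10.1% and 14.3% of all tested genes. At 4 h, 3 were called higher (Cd14, Tlr2 and Tlr4) and 2 lower (Tlr7 and Tlr9), against 8% higher and 9.3% lower of all genes. The median log2 fold change of the 10 genes was 0.11 unstimulated and 0.039 at 4 h, beside -0.0086 and -0.016 over all genes tested. Genes not called had intervals of differing width: unstimulated Tlr4 lay within -0.026 to 0.27, Tlr5 within -0.12 to 0.088, Tlr7 within -0.20 to 0.18, Tlr1 within -0.49 to 0.24 and Tlr9 within -1.50 to 0.55. A fit of these groups alone called Tlr4, with an edgeR adjusted p of 0.0136. At 4 h the intervals were -0.15 to 0.098 for Tlr1, -0.25 to 0.035 for Tlr5, 0.051 to 0.52 for Tlr8 and -0.11 to 0.025 for Tlr13. The Tlr8 interval lies above 0, but its edgeR adjusted p was 0.0857, or 0.0189 without replicate 1 labelled CIS-/-.

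**Figure D3:**
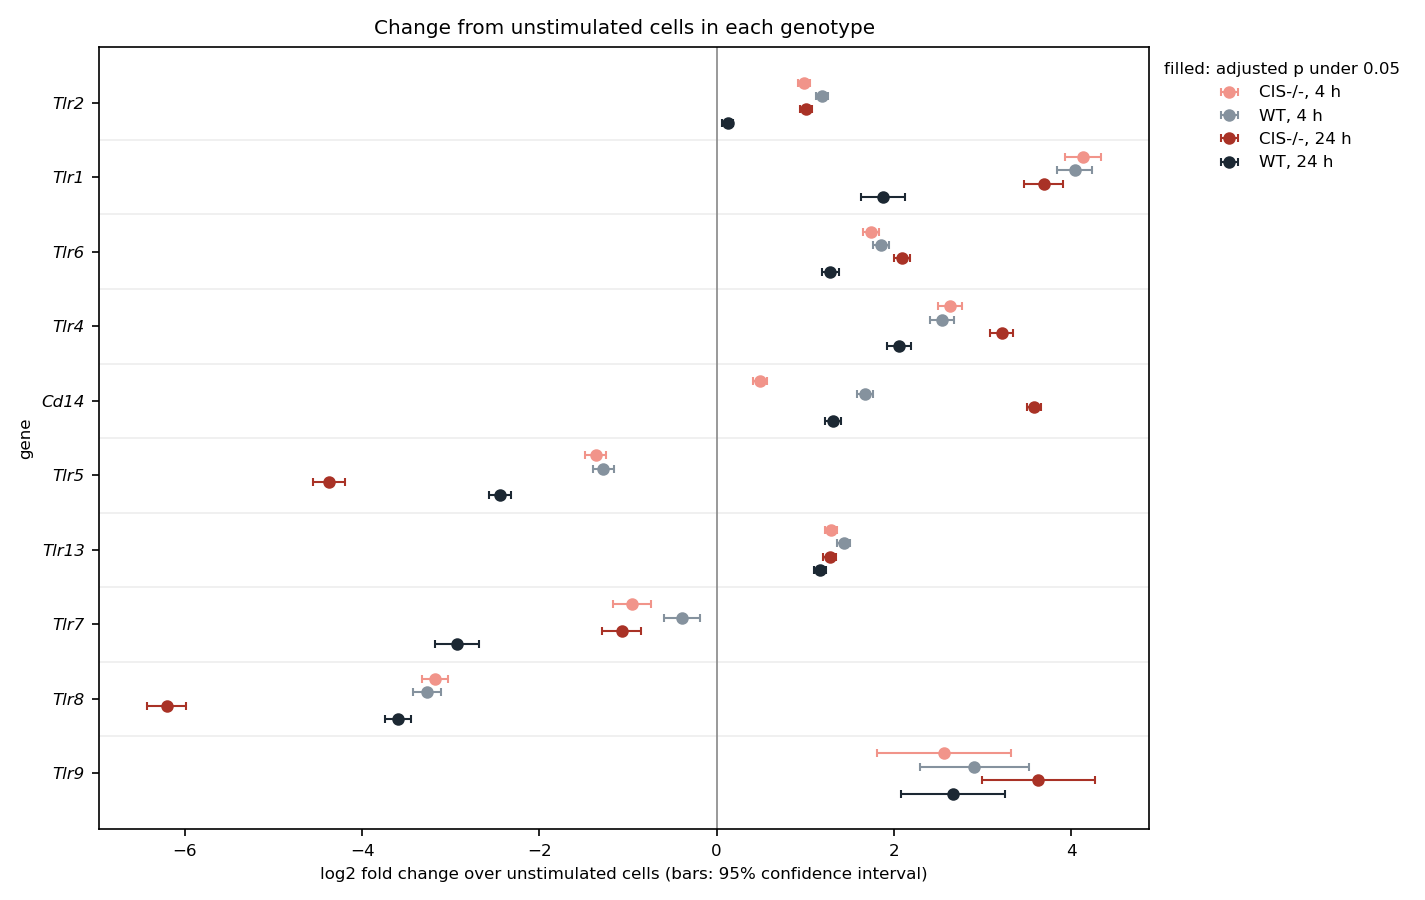
Log2 fold change from unstimulated cells at 4 h (pale) and 24 h (dark) with 95% confidence intervals, libraries labelled CIS-/- (red) above WT libraries (grey and black) for each gene. Tlr5, Tlr7 and Tlr8 lie left of 0 and the other 7 genes right of it in both genotypes, and the 24 h points of the genotypes are farther apart than the 4 h points for every gene but Tlr13.

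Over time the 10 genes split into the same 2 sets in both genotypes, which share no libraries. At 4 h, 7 rose and 3 (Tlr5, Tlr7 and Tlr8) fell in the libraries labelled CIS-/-, where 37.9% of all tested genes rose and 39.1% fell. In WT the 4 h counts were also 7 and 3, where 38.1% of all tested genes rose and 38.2% fell. At 24 h against unstimulated cells, 7 rose and 3 fell in libraries labelled CIS-/- (all tested genes 42.1% and 42%) and in WT (all tested genes 40.7% and 37.7%, or 54.9% and 27.3% with library sizes alone, where the 10 genes gave 7 and 3). Between 4 h and 24 h the genotypes parted. In libraries labelled CIS-/- 4 genes rose (Cd14, Tlr4, Tlr6 and Tlr9) and 3 fell (Tlr1, Tlr5 and Tlr8), where 37.8% of all tested genes rose and 37.9% fell. In WT 0 rose and 9 fell, Tlr9 being the exception, where 35.7% of all tested genes rose and 39.6% fell. That WT count depends on the scaling: with library sizes alone, which moved the median over all genes to 0.45, 2 rose (Cd14 and Tlr13) and 5 fell, beside 58.5% and 21.7% of all tested genes. The change over time was then compared between genotypes, as the log2 change in libraries labelled CIS-/- minus that in WT. From unstimulated to 4 h it differed for 4 of the 10 genes, 0 higher and 4 lower (Cd14, Tlr2, Tlr7 and Tlr13), beside 5.32% higher and 10.4% lower of all tested genes. From unstimulated to 24 h 7 were higher and 2 lower (Tlr5 and Tlr8), beside 31.6% and 33.1% of all tested genes, and with library sizes alone, where these shares were 17.5% and 53.4% and the counts 6 and 3, Tlr13 turned to -0.38. The Tlr13 calls at both times were lost with limma-voom (adjusted p 0.0547 at 4 h and 0.0554 at 24 h). At 24 h Tlr9 was not called, except without WT unstimulated replicate 1, where it was 1.44 (edgeR adjusted p = 0.0135). The 24 h against 4 h change differed between genotypes for all 10 genes, higher in the libraries labelled CIS-/- for 8 and lower for Tlr5 and Tlr8, beside 33.9% and 32.1% of all tested genes. For Tlr13 this difference was 0.26 ± 0.049 with TMM and -0.27 with library sizes alone, where 19.4% of all tested genes were higher and 53.2% lower, and of the 10 genes 7 and 3.

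Per kilobase of exon, the scale on which levels of different genes can be set side by side, Tlr2 and Tlr13 led in 5 of the 6 groups. At 24 h in the libraries labelled CIS-/- the order was Cd14 (829 ± 29.5 CPM per kb, SD, n = 3), Tlr2 (345 ± 4.26), Tlr13 (238 ± 4.52), Tlr4 (136 ± 11.4) and Tlr6 (53.5 ± 1.16), with no overlap between neighbours in that order. In WT at 24 h it was Tlr13 (205 ± 11.7 CPM per kb), Tlr2 (117 ± 4.38), Cd14 (56.3 ± 1.13), Tlr4 (55.96 ± 3.65) and Tlr6 (26.2 ± 0.825), with Cd14 and Tlr4 overlapping, as did Tlr5 and Tlr1 farther down. The last places changed as well: Tlr8 was the lowest at 24 h in libraries labelled CIS-/-, at 0.328 ± 0.0715 CPM per kb, and Tlr7 in WT, at 0.440 ± 0.0954. In unstimulated cells both genotypes ran Tlr2, Tlr13, Cd14, Tlr8, Tlr5, Tlr4, Tlr6, Tlr7, Tlr1 and Tlr9, and no neighbours overlapped. Tlr2 began at 171 ± 2.89 CPM per kb in libraries labelled CIS-/-, against 108 ± 3.19 in WT. At 4 h Cd14 and Tlr4 overlapped in libraries labelled CIS-/-, and Tlr13 and Tlr2 in WT.

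**Figure D4:**
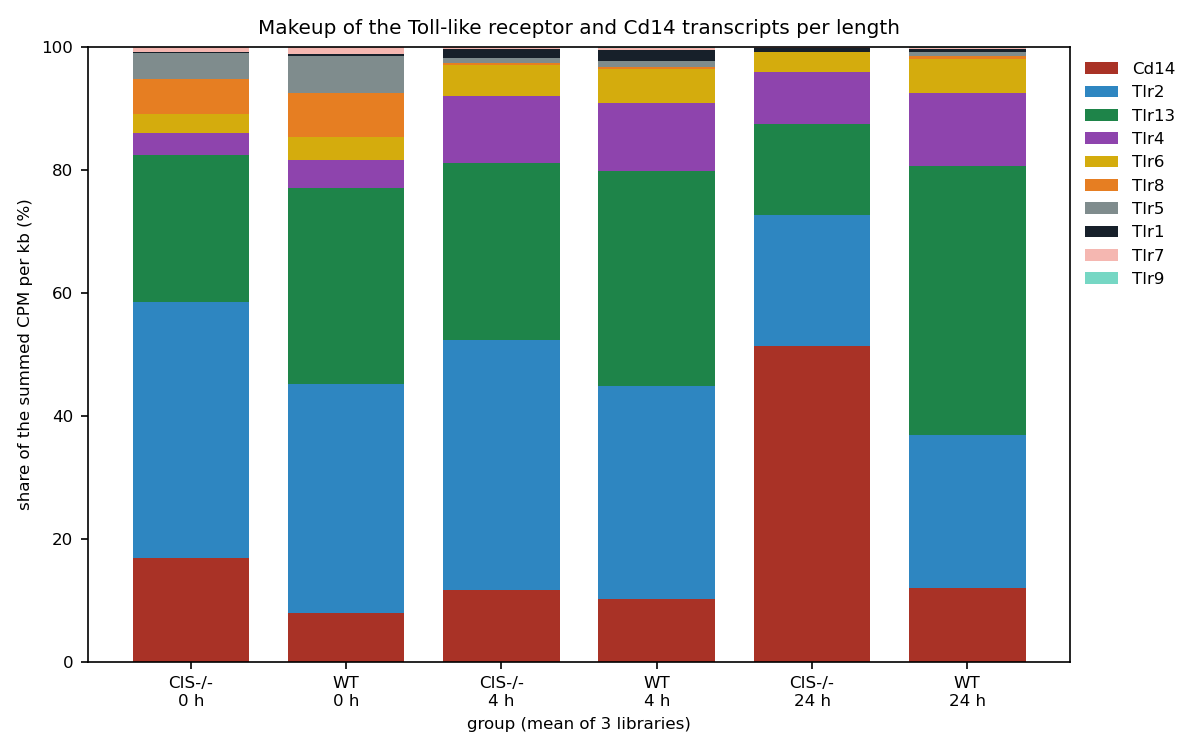
Share of each gene in the summed CPM per kb of the 10 genes, as the mean of 3 libraries per group, with libraries labelled CIS-/- left of WT at each time. Cd14 makes up 51.3% at 24 h in libraries labelled CIS-/- and 11.99% in WT.

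The sum over the 10 genes was 411 ± 4.67 CPM per kb in unstimulated libraries labelled CIS-/-, against 288 ± 6.52 in WT (SD, n = 3). It was 834 ± 20.04 CPM per kb at 4 h in libraries labelled CIS-/-, against 709 ± 13.8 in WT. At 24 h it was 1614 ± 20.2 CPM per kb in libraries labelled CIS-/-, against 469.9 ± 21.3 in WT. The size of this 24 h gap depends on the scaling. The TMM factors at 24 h were 0.884 to 0.894 in libraries labelled CIS-/- and 1.28 to 1.29 in WT. With library sizes alone, 37 of the group levels per kilobase moved by at least their SD and 23 did not. Cd14 made up 51.3% ± 1.18 of the 24 h sum in libraries labelled CIS-/-, against 11.99% ± 0.378 in WT. Tlr13 held 14.7% ± 0.423 of the 24 h sum in libraries labelled CIS-/-, against 43.7% ± 0.529 in WT. Tlr8 and Tlr5 together were a visible part of the makeup in unstimulated cells only: Tlr8 held 5.77% ± 0.0736 in libraries labelled CIS-/- and 7.17% ± 0.170 in WT, and at 24 h 0.0203% ± 0.00456 and, in WT, 0.360% ± 0.0131.

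The genes that carry the signal of these receptors were counted by role. Among co-receptors and trafficking factors, 7 of 13 tested genes were called higher and 6 lower at 24 h in libraries labelled CIS-/-, with a median log2 fold change of 0.23, or 4 and 7 with a median of -0.31 with library sizes alone. For this and the other lists at 24 h, all tested genes gave 38.2% higher and 38.1% lower with TMM, and 22.1% and 60.5% with library sizes alone. Unc93b1, the chaperone that carries nucleic acid-sensing receptors to endosomes, averaged 149 ± 9.60 CPM in libraries labelled CIS-/- and 363 ± 10.8 CPM in WT at 24 h (SD, n = 3; log2 fold change -1.29 ± 0.038). Hsp90b1, the chaperone that folds most of the family, averaged 403 ± 13.9 CPM in libraries labelled CIS-/- and 133 ± 3.03 CPM in WT (1.60 ± 0.038). Slc15a3, a lysosomal peptide transporter, averaged 669 ± 32.00 CPM in libraries labelled CIS-/- and 183 ± 3.72 CPM in WT (1.87 ± 0.035). Ly96, which encodes the TLR4 partner MD-2, rose at 4 h by 1.77 in libraries labelled CIS-/- and by 1.63 in WT on the log2 scale. Lbp, the lipopolysaccharide-binding protein gene, fell at 24 h to 0.198 CPM in libraries labelled CIS-/-, against 49.4 CPM unstimulated, and to 1.47 CPM in WT, against 55.6 CPM unstimulated (means of 3).

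Enzymes of the endosome that process receptors or their ligands had 4 of 10 called higher and 5 lower at 24 h, with a median of -0.24 (-0.77 with library sizes alone). The cathepsin genes Ctsb and Ctsl and the legumain gene Lgmn, which encode proteases able to cleave endosomal receptors, were among those higher. Ctsb averaged 2737 ± 154 CPM in libraries labelled CIS-/- and 395 ± 9.64 CPM in WT (2.79 ± 0.035). Ctsl averaged 432 ± 14.4 CPM in libraries labelled CIS-/- and 73.8 ± 1.84 CPM in WT, and was also higher unstimulated (0.93 ± 0.055) and at 4 h (0.70 ± 0.041). Lgmn averaged 244 CPM in libraries labelled CIS-/- and 56.4 CPM in WT (2.12 ± 0.045). All 3 proteases rose in both genotypes at 4 h, as did Ctss.

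The adaptors did not move together. Myd88, the adaptor of nearly the whole family, averaged 169.5 ± 12.2 CPM in libraries labelled CIS-/- and 184 ± 8.11 CPM in WT at 24 h. With TMM it was slightly lower, with overlap between the genotypes (log2 fold change -0.12 ± 0.039, edgeR adjusted p = 0.00453). The size of this difference depends on the scaling, as library sizes alone moved the median over all genes from -0.021 to -0.55. Ticam1, the adaptor TRIF of the TLR4 and TLR3 pathway, averaged 53.1 ± 1.38 CPM in libraries labelled CIS-/- and 12.7 ± 0.518 CPM in WT (2.06 ± 0.065). Pik3ap1, which links the receptors to phosphoinositide 3-kinase, averaged 551 ± 52.1 CPM in libraries labelled CIS-/- and 79.97 ± 1.02 CPM in WT (2.79 ± 0.045). In all, 2 of 5 tested adaptor genes were called higher and 1 lower, or 2 and 2 with library sizes alone.

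**Figure D5:**
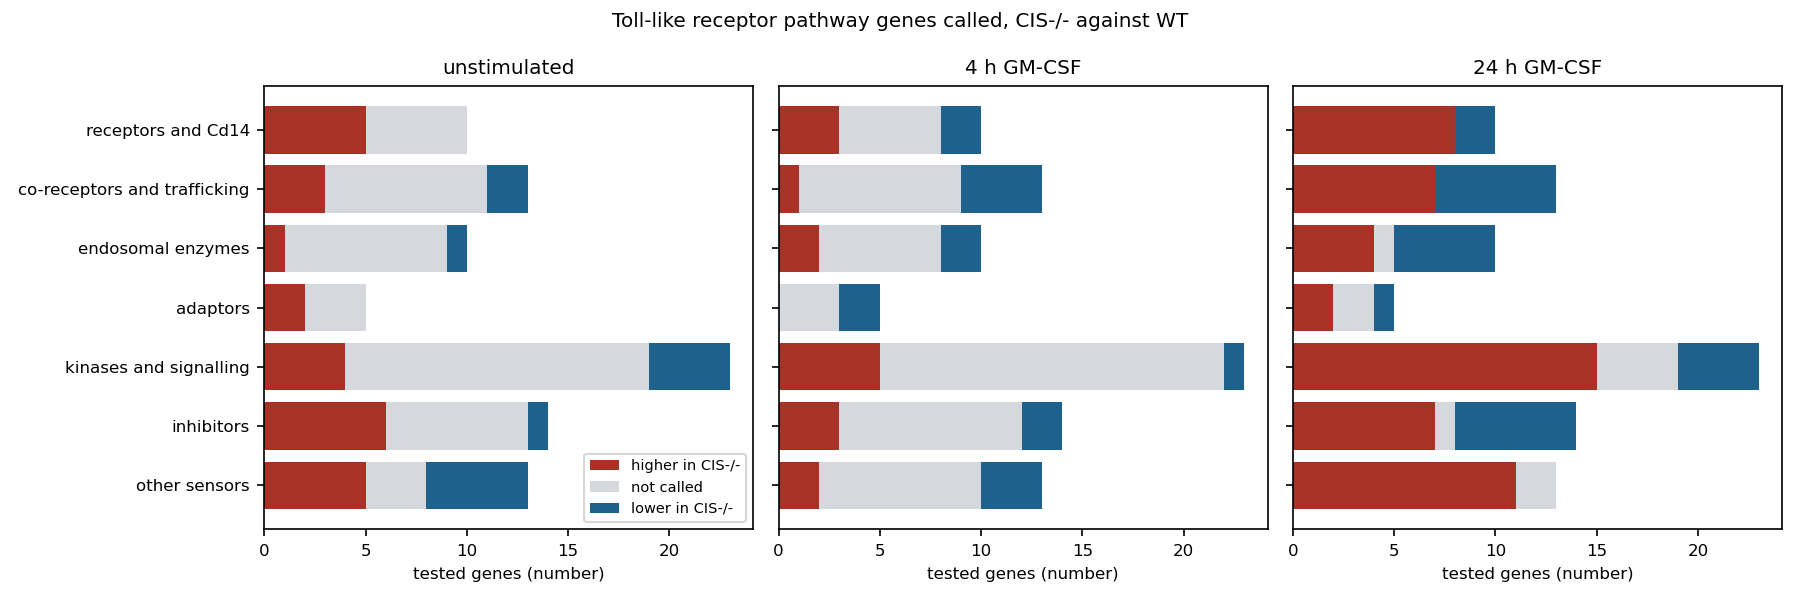
Number of tested genes of each pathway list called higher (red), called lower (blue) or not called (grey) in libraries labelled CIS-/- against WT, unstimulated, at 4 h and at 24 h of GM-CSF. At 24 h all 13 co-receptor and trafficking genes were called, 7 higher and 6 lower, while 11 of 13 other sensors were called higher and 0 lower.

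Of the kinases and signalling genes, 15 of 23 were called higher and 4 lower at 24 h, with a median log2 fold change of 0.46 beside the -0.021 of all genes. With library sizes alone the counts were 10 higher and 11 lower, and the median was -0.073 beside the -0.55 of all genes. Irak2, a kinase of the MyD88 complex, averaged 1440.1 ± 29.3 CPM in libraries labelled CIS-/- and 190.5 ± 2.90 CPM in WT (2.92 ± 0.034). Traf6, the ubiquitin ligase that follows it, averaged 229 ± 17.8 CPM in libraries labelled CIS-/- and 47.5 ± 2.02 CPM in WT (2.27 ± 0.047). Ikbke, a kinase that acts on interferon regulatory factors, averaged 372 ± 17.6 CPM in libraries labelled CIS-/- and 47.1 ± 2.48 CPM in WT (2.98 ± 0.044). Irf5, a transcription factor of the pathway, averaged 580.1 ± 20.4 CPM in libraries labelled CIS-/- and 198 ± 2.41 CPM in WT (1.55 ± 0.035). Unstimulated, 4 of these genes were called higher and 4 lower, beside 12.9% and 9.41% of all tested genes, and Map3k8, the kinase Tpl2, was among the higher ones (0.96 ± 0.062).

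Inhibitors of the pathway were split at 24 h, 7 of 14 called higher and 6 lower, with a median of 0.29, or 7 and 7 with a median of -0.25 with library sizes alone. The NF-kB inhibitors Nfkbia and Tnfaip3, both also known as targets of NF-kB, were higher. Nfkbia averaged 2201 ± 173 CPM in libraries labelled CIS-/- and 227 ± 6.21 CPM in WT at 24 h (3.28 ± 0.039). Unstimulated, Nfkbia averaged 272 ± 6.10 CPM in libraries labelled CIS-/- and 156 ± 1.08 CPM in WT (0.80 ± 0.039). Tnfaip3, which encodes the ubiquitin-editing enzyme A20, averaged 508 ± 31.6 CPM in libraries labelled CIS-/- and 67.7 ± 1.23 CPM in WT at 24 h (2.91 ± 0.043). Tnfaip3 was also higher unstimulated (0.86 ± 0.053) and at 4 h (0.46 ± 0.050). Irak3, the inactive kinase that restrains the MyD88 complex, averaged 177 ± 4.28 CPM in libraries labelled CIS-/- and 73.5 ± 2.48 CPM in WT.

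Sensors outside the family were called higher for 11 of 13 genes and lower for 0 at 24 h, with a median of 1.28, or 9 and 3 with a median of 0.75 with library sizes alone. Clec4e, the receptor Mincle of mycobacterial and fungal glycolipids, averaged 737 ± 26.6 CPM in libraries labelled CIS-/- and 71.6 ± 2.63 CPM in WT (3.36 ± 0.038). The fungal glucan receptor gene Clec7a (Dectin-1) differed by 1.99 ± 0.034 and the inflammasome sensor gene Nlrp3 by 1.32 ± 0.034. Clec4e had fallen at 4 h in both genotypes, by 2.33 in libraries labelled CIS-/- and by 1.91 in WT on the log2 scale. At 4 h the genes called higher and lower in libraries labelled CIS-/- were 1 and 4 of 13 co-receptor and trafficking genes, 2 and 2 of 10 endosomal enzymes, 0 and 2 of 5 adaptors, 5 and 1 of 23 kinases and signalling genes, 3 and 2 of 14 inhibitors and 2 and 3 of 13 sensors outside the family, beside 8% and 9.3% of all tested genes.

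By the root mean square difference of centred log2 levels over the 6 group means, taken over 6764 genes, the genes most like Cd14 were Atf3 (0.30), Eid3 (0.30) and Hcar2 (0.32). Atf3, a stress-induced transcription factor gene, averaged 976 CPM at 24 h in libraries labelled CIS-/- and 39.2 CPM in WT. Eid3 reached 33.9 CPM at 24 h in libraries labelled CIS-/- but only 0.745 to 2.14 CPM in every other group. Its likeness thus rests on low levels, near the 0.5 CPM added before taking logs. For Tlr2 they were Etv3 (0.17), Ankrd33b (0.22) and Hnrnph2 (0.23). For Tlr4 they were Rbpj (0.061), Fndc3b (0.11) and Plgrkt (0.12), closer than those of Cd14 or Tlr2. Rbpj, the transcription factor of Notch signalling, averaged 284 CPM at 24 h in libraries labelled CIS-/- and 106 CPM in WT.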

How the data were processed

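Raw counts per Ensembl gene ID were deposited by the authors for the 18 libraries, from a directional RNA library kit per the labels' protocols, and the submitters' processing notes list Trimmomatic, STAR, featureCounts and mm10. Tool versions, strand setting and gene annotation: not given in the sources used here. One label, the treatment protocol, reads 42 h for the later time, which is 24 h in every title, and 24 h is used. Gene names, coordinates and merged exon lengths were taken from GENCODE M21 (GRCm38), matched on IDs without version (53274 of 53379 IDs), and no annotated gene overlapped any of the 10. No pair of replicates was a duplicate (chi-square per degree of freedom 1.29 to 8.46 over 18 pairs). The highest values were those of 24 h replicate 1 labelled CIS-/-, at 6.82 against replicate 2 and 8.46 against replicate 3. Replicates 2 and 3 of that group gave 2.40, and pairs of the other groups reached at most 2.90.

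In R 4.3.3, edgeR 4.0.16 was run with filterByExpr by group (11569 genes kept, 99.9% of counts), TMM and a robust quasi-likelihood model of the 6 groups. Contrasts were tested two-sided with Benjamini-Hochberg adjustment over all genes, and p under 0.05 was called. The pipeline was tested on simulated data in which few genes changed, in both directions and only in the 24 h group labelled CIS-/-. That setting cannot test the scaling of the real 24 h libraries, where most tested genes were called. Alternatives were RLE, library sizes alone, DESeq2 1.42.0, limma-voom (limma 3.58.1), other filters, fewer groups in the fit, a replicate block, a non-robust prior, each library left out and a minimum log2 fold change of 1. The genes and lists were chosen with earlier results of these data known. From each list, up to 4 genes were named, those of smallest adjusted p that reached 1 CPM. Genes of like pattern were the 3 closest with at least 10 CPM in a group, after adding 0.5 CPM.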

Additional observations from a re-analysis of the deposited data

Results flagged for a closer look

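The response over time differed between the libraries labelled CIS-/- and WT by the test of the difference itself (edgeR interaction term, adjusted over all tested genes) for these genes and intervals, given as the log2 change in libraries labelled CIS-/- minus that in WT. From unstimulated to 4 h it was -1.19 for Cd14, -0.57 for Tlr7, -0.20 for Tlr2 and -0.14 for Tlr13. From unstimulated to 24 h it was 2.26 for Cd14, 1.86 for Tlr7, 1.82 for Tlr1, 1.16 for Tlr4, 0.89 for Tlr2, 0.81 for Tlr6 and 0.11 for Tlr13. Over that interval Tlr8 and Tlr5 differed the other way, at -2.61 and -1.93.

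From 4 h to 24 h the difference was 3.45 for Cd14, 2.42 for Tlr7, 1.72 for Tlr1, 1.30 for Tlr9, 1.09 for Tlr2, 1.07 for Tlr4, 0.92 for Tlr6 and 0.26 for Tlr13, and -2.70 for Tlr8 and -1.84 for Tlr5. Cd14, Tlr2, Tlr7 and Tlr13 had called differences of opposite sign at 4 h and at 24 h against unstimulated cells. The Tlr13 value at 4 h lost its call under other scalings and tools (adjusted p 0.0505 with RLE, 0.0746 with DESeq2, 0.0547 with limma-voom and 0.121 with library sizes alone), and also without a low-count filter and with a non-robust prior. It was lost too without WT unstimulated replicate 2 or 3, unstimulated replicate 1 or 3 labelled CIS-/-, WT 4 h replicate 2 or 3, or 4 h replicate 1 or 3 labelled CIS-/- (edgeR adjusted p between 0.0626 and 0.135). The Tlr13 value from unstimulated to 24 h lost its call with limma-voom (adjusted p 0.0554), without a low-count filter (0.295) and with a non-robust prior (0.0537). It was also lost without WT unstimulated replicate 1, WT 24 h replicate 1 or 3, any 1 unstimulated replicate labelled CIS-/- or 24 h replicate 2 labelled CIS-/- (edgeR adjusted p between 0.0577 and 0.200). Both later Tlr13 values turned round with library sizes alone.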

How the results depend on the processing

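Of 2149 values of the 10 genes recomputed under an alternative, 2051 kept their direction and their side of the threshold, 72 lost their call, 7 gained one and 19 changed sign. With library sizes alone, the sign changed at 24 h over WT for Tlr9 (-0.043) and Tlr13 (-0.32). In WT from 4 h to 24 h it changed for Tlr8 (0.16), Tlr9 (0.25), Tlr13 (0.22) and Cd14 (0.13), with 2 genes called higher and 5 lower. It also changed for Tlr2 from 4 h to 24 h in libraries labelled CIS-/- (-0.015) and for the Tlr13 difference in response at 24 h against unstimulated cells (-0.38) and against 4 h (-0.27). The Tlr13 change from 4 h to 24 h in libraries labelled CIS-/- was 0.0029 with RLE and 0.0029 with DESeq2. The cause was not tested.

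Leaving out 1 library turned only values that were not called: over WT unstimulated Tlr5 (-0.052 to 0.014), Tlr7 (-0.047 to 0.028), over WT at 4 h Tlr1 (-0.072 to 0.026), from 4 h to 24 h in libraries labelled CIS-/- Tlr13 (-0.042 to 0.011), and for the difference in response at 4 h Tlr1 (-0.0077 to 0.22), Tlr8 (-0.047 to 0.20), Tlr9 (-0.73 to 0.16) (lowest to highest value over the libraries left out). The values that turned with library sizes alone kept their sign here: over WT at 24 h Tlr9 (0.43 to 0.56) and Tlr13 (0.19 to 0.27), from 4 h to 24 h in WT Tlr8 (-0.40 to -0.28), Tlr9 (-0.31 to -0.13), Tlr13 (-0.31 to -0.23) and Cd14 (-0.38 to -0.33), Tlr2 in libraries labelled CIS-/- (0.0055 to 0.050), and the Tlr13 difference in response (0.077 to 0.17 and 0.22 to 0.30). Between libraries left out, the number of the 10 genes called at 4 h over WT ran from 2 to 4 higher and from 1 to 2 lower. Over WT it ran from 4 to 5 higher unstimulated and from 7 to 8 higher at 24 h. From 4 h to 24 h in WT it ran from 8 to 9 lower. For the difference in response from unstimulated cells it ran from 3 to 4 lower at 4 h and from 6 to 7 higher at 24 h. The other counts of the 10 genes stayed the same.

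With a minimum log2 fold change of 1, 1 of the 10 genes was called higher than WT and 0 lower unstimulated. At 4 h 0 were called higher and 0 lower, and at 24 h 6 were called higher and 2 lower. Of all 11569 tested genes, 202 were called unstimulated, 126 at 4 h and 3951 at 24 h, higher and lower together. From unstimulated cells to 4 h, 5 of the 10 rose and 2 fell in libraries labelled CIS-/-, against 7 and 2 in WT. To 24 h, 7 rose and 3 fell in libraries labelled CIS-/-, against 6 and 3 in WT. From 4 h to 24 h, 2 rose and 2 fell in libraries labelled CIS-/-, against 0 and 4 in WT. All genes called, rising and falling together, were 4202 (4 h), 5775 (24 h) and 4140 (4 h to 24 h) in libraries labelled CIS-/-. In WT they were 4004 (4 h), 4004 (24 h) and 3463 (4 h to 24 h). For the difference in response, 0 of the 10 were higher and 1 lower at 4 h, and 4 higher and 2 lower at 24 h. From 4 h to 24 h, 6 were higher and 2 lower. All genes called, higher and lower together, were 167 at 4 h, 3501 at 24 h and 3659 from 4 h to 24 h. With the replicate number as a block, the counts of the 10 genes called were the same in all 12 comparisons. Under the block 8839 genes in all were called at 24 h over WT. Whether same-numbered libraries share an origin is not given in the labels. The deviations of same-numbered libraries had correlations of -0.179 to 0.213. The own number gave the best correlation in 31 of 90 library and group pairs, and in every other group for 0 of 18 libraries. These values cannot decide whether the numbers mark a pairing, since deviations among replicates may be technical. Counts limit Tlr9 in every group and Tlr8 at 24 h in libraries labelled CIS-/-.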
